A study of Mus musculus with 6 samples.

Results

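Glycolysis splits glucose into pyruvate in the cytosol and yields ATP without oxygen. Its first steps spend ATP to phosphorylate the sugar and cut it into triose phosphates, and its later steps recover ATP and NADH from them. Early embryonic hearts rely on this pathway heavily, and many of its enzyme genes are known targets of hypoxia-inducible factors. The genes described here encode 10 enzymes that carry glucose-6-phosphate to pyruvate, Gpi1, Pfkl, Pfkp, Aldoa, Tpi1, Gapdh, Pgk1, Pgam1, Eno1 and Pkm. They were chosen by symbol from 30323 gene rows, with earlier results of these data known. Each symbol matched 1 row, and all 10 were among the 14697 genes tested. Comparisons below with shares over all tested genes are therefore not independent of the data.

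The libraries were made from RNA of whole embryonic mouse hearts at day 9.5. The MCKO group carried a knockout of Cdc42, a small GTPase that organises actin and polarity, in the myocardium, and the control group was labelled C57BL/6. Each group had 3 libraries. The Cre driver, the Cdc42 allele, the alleles the control embryos carried and their litters are not given in the labels. Nothing says that the samples of a group came from separate embryos, so p-values cover the spread between samples only, and that spread may be technical. Library totals were 23883877 to 34246477 estimated counts in MCKO and 19256840 to 32169289 in control, and levels are given as CPM, counts scaled to the library total. At these depths 3 counts correspond to 0.0876 to 0.156 CPM, far below every enzyme described. Cdc42 averaged 242.3 ± 4.8 CPM in MCKO and 400.0 ± 23.2 CPM in control (SD, n = 3 each), a log2 fold change of -0.66 (SE 0.047, edgeR adjusted p = 2.93e-06).

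Markers of several cell types differed in the same libraries. Over all tested genes 29.3% were called higher in MCKO and 29.1% lower. Among abundant genes, averaging 300 CPM or more, 47.1% were called higher and 30.2% lower. Of 10 markers of primitive red cells 10 rose, and their summed level was 7151 to 7663 CPM in MCKO and 3298 to 3703 CPM in control. The 10 endothelial markers, of which 9 rose and 1 fell, summed to 1335 to 1369 CPM in MCKO and 1049 to 1072 CPM in control. The 10 heart muscle markers, of which 4 rose and 1 fell, summed to 41227 to 42712 CPM in MCKO and 34807 to 38207 CPM in control. That 4 of these 10 rose is not above the share of abundant genes called higher. All 10 pharyngeal and foregut epithelium markers rose, with a median log2 fold change of 2.31, and summed to 264.0 to 286.3 CPM in MCKO and 154.0 to 167.9 CPM in control, mostly from Krt8 and Krt18. Proepicardial markers, with 5 of 6 lower, summed to 70.0 to 72.3 CPM in MCKO and 164.7 to 171.6 CPM in control. Liver bud markers, with 4 of 5 tested lower and Alb at 0 counts in every MCKO library, summed to 69.1 to 77.8 CPM in MCKO and 83.1 to 98.3 CPM in control. Most of the liver bud sum was Prox1, which was not called, at 73.9 CPM in MCKO and 76.4 CPM in control, whereas Afp averaged 0.10 CPM in MCKO and 11.4 CPM in control and the median log2 fold change of the list was -4.23. No listed marker was at 0 in all 6 libraries. In whole hearts fewer cells of a type and less RNA per cell cannot be told apart, and the part of these cell types in the results below was not tested.

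Of the 10 enzyme rows, 9 rose in MCKO and 1, Eno1, fell. Over all tested genes, 58.4% were called at an adjusted p under 0.05, 29.3% as higher and 29.1% as lower, and among the 516 most abundant, averaging 300 CPM or more, the shares were 47.1% higher and 30.2% lower. The median log2 fold change of the 10 rows was 0.85, against 0.00057 for all tested genes and 0.12 for the abundant ones. MCKO and control libraries did not overlap for any of the 10, while 65.5% of all tested genes did not overlap. Together the 10 rows held 2.40 to 2.51% of all counts in MCKO libraries and 1.46 to 1.60% in control libraries. In the same libraries mitochondrially encoded genes held 1.31 to 1.38% of counts in MCKO and 3.13 to 3.55% in control, and haemoglobin genes 0.697 to 0.749% in MCKO and 0.320 to 0.361% in control. With both kinds of row left out of the fit, 9 of the 10 enzymes were again higher and Eno1 lower.

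**Figure D1:**
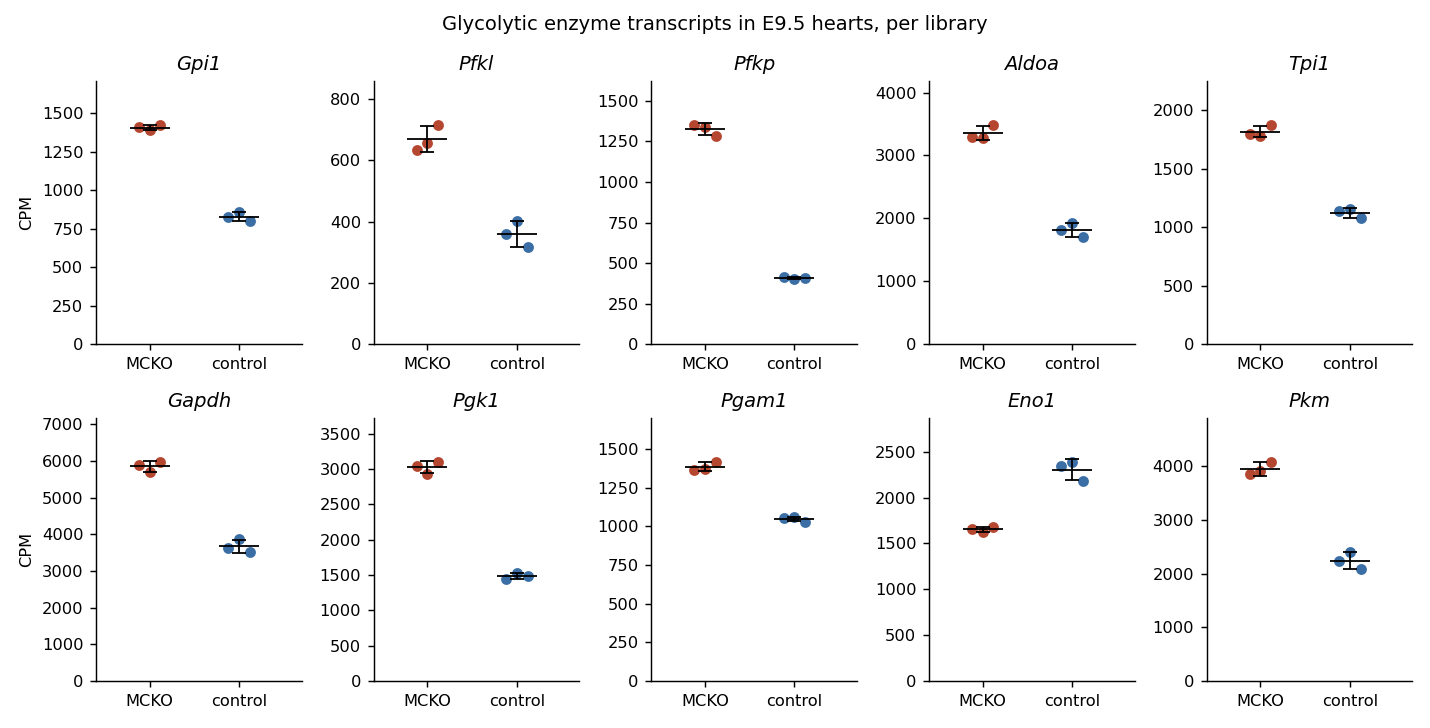
Level of each enzyme gene in CPM (linear axes from 0) in 3 MCKO and 3 control libraries, in pathway order; points are libraries and black marks the mean with SD. In 9 panels every MCKO point lies above every control point, and in the Eno1 panel every MCKO point, at 1625 to 1675 CPM, lies below them.

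The investment steps rose at every enzyme. Gpi1, glucose-6-phosphate isomerase (ENSMUSG00000036427, chromosome 7, 34201330 to 34230336 on the minus strand of GRCm38), had 1411, 1390 and 1426 CPM in MCKO and 825.4, 857.4 and 799.7 CPM in control. The 2 sets were well apart, with a log2 fold change of 0.83 (SE 0.041, edgeR adjusted p = 3.40e-07). Phosphofructokinase commits the sugar to glycolysis and is the main point of control, and 2 of its subunit genes are on the list. Pfkp, the platelet-type subunit (ENSMUSG00000021196, chromosome 13, 6579768 to 6648777 on the minus strand), had 1352, 1341 and 1282 CPM in MCKO and 417.1, 402.7 and 410.1 CPM in control. It had the largest change of the 10, 1.75 on the log2 scale (SE 0.039, adjusted p = 2.61e-09), a 3.37-fold difference. Pfkl, the liver-type subunit (ENSMUSG00000020277, chromosome 10, 77986947 to 78010083 on the minus strand), had 634.3, 656.1 and 715.0 CPM in MCKO and 360.4, 400.4 and 315.5 CPM in control. It spread most within both groups, with a coefficient of variation of 6.24% in MCKO and 11.8% in control, and had a log2 fold change of 0.96 (SE 0.091, adjusted p = 6.30e-05).

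Aldolase and triose-phosphate isomerase, which cut the hexose and interconvert the trioses, both rose. Aldoa (ENSMUSG00000030695, chromosome 7, 126795234 to 126800751 on the minus strand), had 3297, 3279 and 3485 CPM in MCKO and 1809, 1920 and 1700 CPM in control. The lowest MCKO library lay well above the highest control library, with a difference of 0.95 on the log2 scale (SE 0.054, edgeR adjusted p = 7.12e-07). Tpi1 (ENSMUSG00000023456, chromosome 6, 124810586 to 124814296 on the minus strand) had 1797, 1783 and 1875 CPM in MCKO and 1142, 1154 and 1076 CPM in control. Its log2 fold change was 0.76 (SE 0.044, adjusted p = 9.18e-07), again without overlap.

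The pay-off phase begins with glyceraldehyde-3-phosphate dehydrogenase. Its gene Gapdh (ENSMUSG00000057666, chromosome 6, 125161715 to 125166467 on the minus strand) is widely used as a loading control. It had 5890, 5690 and 5982 CPM in MCKO and 3627, 3861 and 3528 CPM in control. That is a log2 fold change of 0.73 (SE 0.046, edgeR adjusted p = 1.43e-06). Pgk1, phosphoglycerate kinase, makes the first ATP of this phase and lies on the X chromosome (ENSMUSG00000062070, 106187100 to 106203699 on the plus strand). It had 3044, 2930 and 3103 CPM in MCKO and 1448, 1524 and 1482 CPM in control, and its log2 fold change of 1.09 (SE 0.041, adjusted p = 6.20e-08) was the second largest. The labels do not give the embryos' sex, and the summed counts of 4 Y-linked genes were 118.9 to 135.3 CPM in MCKO and 126.7 to 154.3 CPM in control.

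Pgam1, phosphoglycerate mutase (ENSMUSG00000011752, chromosome 19, 41911923 to 41918660 on the plus strand), had the smallest rise. It had 1367, 1368 and 1419 CPM in MCKO and 1051, 1060 and 1030 CPM in control, a log2 fold change of 0.46 (SE 0.038, edgeR adjusted p = 7.54e-06). Of all tested genes, 19.4% had a log2 fold change at least as large as that. Pkm, the pyruvate kinase gene that ends the pathway (ENSMUSG00000032294, chromosome 9, 59656368 to 59679375 on the plus strand), had 3857, 3907 and 4090 CPM in MCKO and 2239, 2401 and 2088 CPM in control. The groups were far apart, with a log2 fold change of 0.88 (SE 0.056, adjusted p = 1.59e-06). The table gives 1 value for the gene, so its M1 and M2 splice forms could not be told apart.

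Eno1, the enolase that makes phosphoenolpyruvate, was the only one of the 10 rows that fell (ENSMUSG00000063524, chromosome 4, 150236721 to 150248879 on the plus strand). It had 1656, 1625 and 1675 CPM in MCKO and 2342, 2392 and 2179 CPM in control. Every MCKO library lay below every control library, at a log2 fold change of -0.42 (SE 0.046, edgeR adjusted p = 4.72e-05). This value cannot be read alone, because estimated counts are divided between transcripts that share reads, and Eno1 has a near-identical copy in the mouse genome, the retrogene Eno1b. The longest annotated Eno1b transcript aligned to Eno1 over 92.2% of its length with 99.5% identity, and 9 bases differed over 1652 aligned.

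Eno1b moved the other way and by more. It had 1874, 1924 and 2032 CPM in MCKO and 289.2, 307.5 and 246.8 CPM in control, a log2 fold change of 2.85 (SE 0.085, edgeR adjusted p = 6.93e-08). A second copy, the processed pseudogene Gm4735, named after its values were seen, averaged 133.8 ± 5.8 CPM in MCKO and 69.7 ± 10.4 CPM in control. Of the summed counts of the 3 rows, Eno1 held 45.3, 44.1 and 43.5% in MCKO and 86.4, 86.7 and 87.3% in control, and Eno1b held 51.2, 52.3 and 52.8% in MCKO and 10.7, 11.1 and 9.89% in control. Within each group the division hardly varied between libraries, and between the groups it changed by far more than that. In MCKO against control the mean of the Eno1 row fell by 652.6 CPM, and that of the Eno1b row rose by 1662 CPM. Their sum with Gm4735 was 3658, 3683 and 3847 CPM in MCKO and 2711, 2760 and 2495 CPM in control. Summed before the fit, the family rose by 0.55 on the log2 scale (SE 0.049, adjusted p = 1.24e-05), so the direction at this step depended on whether the copies were added. Whether the reads of Eno1b came from that locus or were assigned to it from Eno1 was not tested. The labels name a strain for the control group only, so a difference in strain alleles between the groups cannot be told apart from the knockout here.

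**Figure D2:**
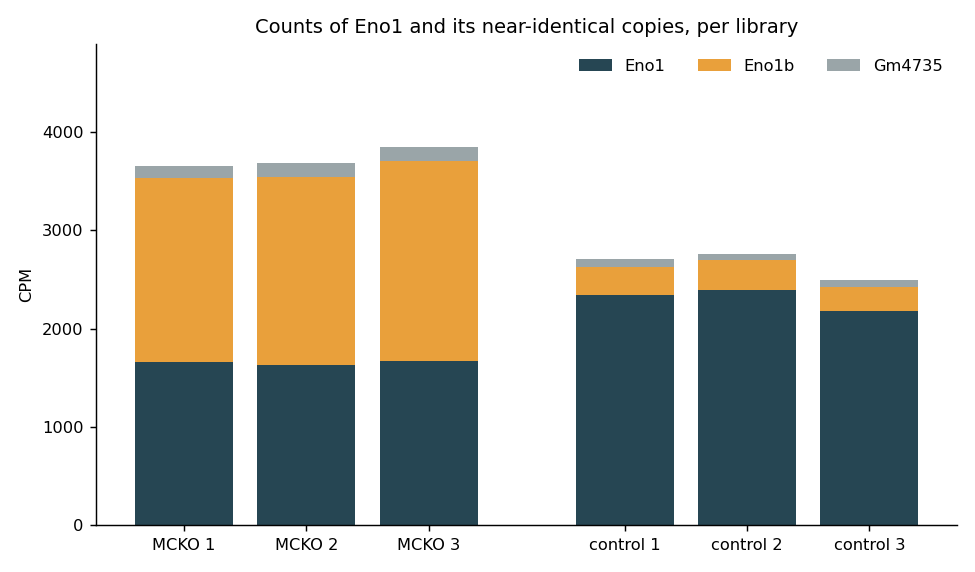
Stacked CPM of Eno1, its retrogene Eno1b and the pseudogene Gm4735 in each library, MCKO at the left and control at the right. The stacks are taller in MCKO, at 3658 to 3847 CPM against 2495 to 2760 CPM in control, while the Eno1 part is shorter and the Eno1b part takes 51.2 to 52.8% of each MCKO stack.

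Gapdh had the most copies. By the criteria used, 95% identity over 80% of the copy's length or a matching name, 74 copies of Gapdh were found, and all 74 had counts. The Gapdh row held 70.4 to 74.9% of the family's counts in MCKO and 72.5 to 77.0% in control. Most of the rest lay in a pair of processed pseudogenes, Gm10359 and Gm12671, each identical to a stretch of Gapdh over all 1002 bases of their own length. Their counts were equal to each other in every library, at 30426, 26310 and 27192 each in MCKO and 14423, 12667 and 14927 each in control. The pair of rows therefore carries 1 measurement, not 2. Each of the pair averaged 1017 ± 125 CPM in MCKO and 552.1 ± 98.1 CPM in control, with a log2 fold change of 0.94 (SE 0.16, edgeR adjusted p = 0.00312). The Gapdh family sum was 7864, 7974 and 8503 CPM in MCKO and 4821, 5324 and 4581 CPM in control. Its log2 fold change was 0.79 (SE 0.062, adjusted p = 6.25e-06), beside 0.73 for the Gapdh row.

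Copies of other members were fewer. Pgk1 had 2, of which Gm5537, identical to Pgk1 over its whole length, averaged 460.6 ± 24.2 CPM in MCKO and 209.1 ± 43.9 CPM in control. The Pgk1 family rose by 1.11 (SE 0.036, edgeR adjusted p = 2.01e-08). Pgam1 also had 2, and the larger, Pgam1-ps2, averaged 92.6 ± 15.4 CPM in MCKO and 61.9 ± 17.7 CPM in control and was not called (adjusted p = 0.0702). It was called without control replicate 2, in which it was highest among the controls, at 0.88 on the log2 scale (adjusted p = 0.0165), by DESeq2 (adjusted p = 0.0462) and with the replicate block (adjusted p = 0.000479). The Pgam1 family rose by 0.48 (SE 0.040, adjusted p = 8.15e-06). Copies of Aldoa and Tpi1, 2 each, held at most 0.251 CPM in any library, and none was found for Gpi1, Pfkl, Pfkp or Pkm. With copies summed, all 10 families rose, where 29.3% of all tested rows were called higher, and their median log2 fold change was 0.86.

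**Figure D3:**
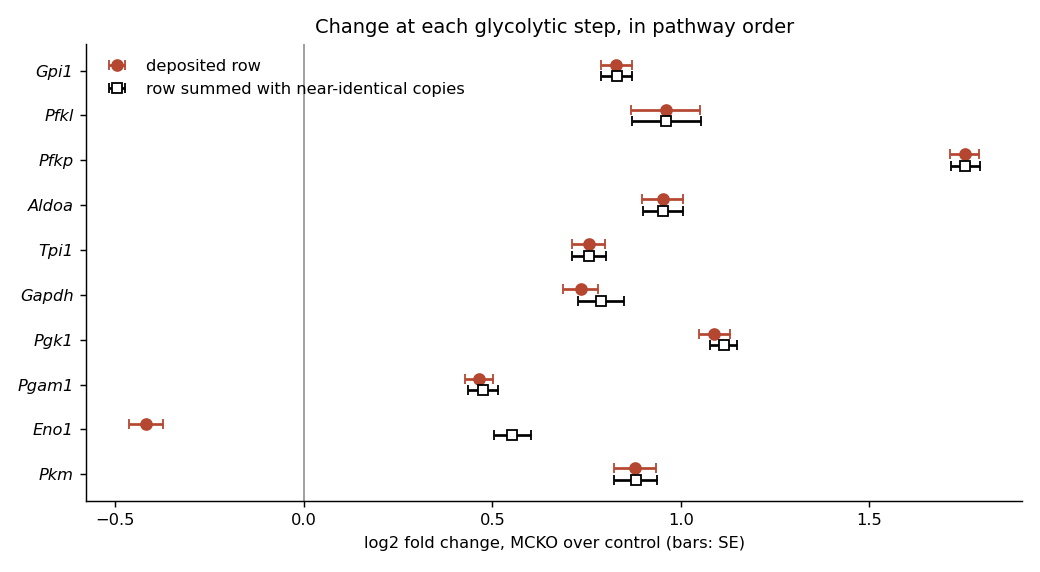
Log2 fold change, MCKO over control, with SE bars, of each deposited row (filled circles) and of the row summed with its near-identical copies (open squares), in pathway order from top to bottom. The 2 marks lie close together for 9 enzymes and on opposite sides of 0 for Eno1, at -0.42 and 0.55.

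Within each group most of the 10 rows shared their highest library. Control replicate 2 was highest of the controls for 9 members and control replicate 3 lowest for 8, while MCKO replicate 3 was the highest MCKO library for 9. Pfkp ran otherwise, with control replicate 1 highest and 2 lowest, and MCKO replicate 1 highest and 3 lowest. Pgk1 had control replicate 1 lowest. Differences within groups were small. Coefficients of variation ran from 1.28% for Gpi1 to 6.24% for Pfkl in MCKO, and from 1.47% for Pgam1 to 11.8% for Pfkl in control. How many of all tested genes share this order of libraries was not counted. Most heart muscle markers, Tnni1, Myl4, Myl7, Myh6, Myh7, Nkx2-5 and Nppa, also had control replicate 2 highest and control replicate 3 lowest. The remaining ones, Tnnt2, Actc1 and Ttn, did not.

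The enzymes did not all change by the same amount. For 10 pairs of members in neighbouring steps, the log2 ratio of the later to the earlier enzyme was taken in each library. In 7 pairs the ratios of MCKO and control libraries did not overlap, each with an exact 2-sided permutation p of 0.1, the smallest that 3 against 3 libraries can give, and 0.143 after Benjamini-Hochberg adjustment over the 10 pairs. None can therefore pass 0.05. The pairs share members, so they are not separate results, and both Eno1 to Pgam1 and Pkm to Eno1 rest on the Eno1 row. How often pairs of other genes would not overlap was not counted. The ratio of Pfkp to Gpi1 averaged -0.09 ± 0.06 in MCKO and -1.01 ± 0.07 in control, and that of Pgam1 to Pgk1 -1.13 ± 0.03 in MCKO and -0.50 ± 0.04 in control (SD, n = 3 each). By contrast Gapdh to Tpi1 averaged 1.69 ± 0.02 in MCKO and 1.71 ± 0.04 in control, with overlapping libraries, and Pfkl to Gpi1 and Aldoa to Pfkl overlapped as well. The ratio of Pkm to Eno1 was 1.30 higher in MCKO from single rows but 0.33 higher from family sums.

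Levels of different genes can be compared only per length, and the annotation leaves room in that length. With the median length of the coding transcripts, Gpi1 was assigned 581 bases although its longest coding sequence has 1674, so the order is given per kilobase of the longest coding sequence. On that scale Gapdh was highest, at 5436 CPM per kb in MCKO and 3410 CPM per kb in control. Pfkl was lowest, at 285.7 CPM per kb in MCKO and 153.3 CPM per kb in control. In MCKO the order in between was Aldoa, Pkm, Pgk1, Tpi1, Pgam1, Eno1, Gpi1 and Pfkp, where Pkm and Pgk1 overlapped in range. In control it was Eno1, Aldoa, Pkm, Pgam1, Tpi1, Pgk1, Gpi1 and Pfkp, with overlaps between Aldoa and Pkm, Pkm and Pgam1, and Tpi1 and Pgk1. The place of Eno1 depended on its copies. With copies summed, a choice made after seeing the data, the Eno1 family was 2nd in both groups, at 2864 ± 79 CPM per kb in MCKO, where it overlapped with the Pgk1 family, and 2039 ± 108 CPM per kb in control, whereas the Eno1 row was 7th in MCKO and 2nd in control. With the median transcript length, Pkm at 5450 and Gapdh at 5430 CPM per kb overlapped at the top in MCKO, and Pfkl was again lowest in both groups.

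Several steps have more than 1 isozyme gene, and the others were set beside the members. The list also holds Bpgm, Adpgk and Galm, which are not isozymes of these steps. Of its 10 tested genes, 8 rose, 1, Adpgk, fell and 1, Bpgm, was not called, with a median log2 fold change of 0.42. Here and for the lists below, such counts stand beside 29.3% called higher and 29.1% called lower over all tested genes. The lists too were chosen with earlier results of these data known, so this comparison only describes them. Aldoc, the aldolase of brain, averaged 45.4 ± 1.6 CPM in MCKO and 8.72 ± 0.86 CPM in control, a log2 fold change of 2.44 (SE 0.077, edgeR adjusted p = 1.93e-08). Eno2, the neuronal enolase, averaged 32.8 ± 1.4 CPM in MCKO and 9.32 ± 0.51 CPM in control. Aldoc changed more than Aldoa. Eno2, with a log2 fold change of 1.88, changed more than the Eno1 row but less than Eno1b, at 2.85. The muscle isozymes rose less, with Eno3 at 0.43 (SE 0.041), Pgam2 at 0.40 (SE 0.072) and Pfkm at 0.25 (SE 0.048). Pklr, the pyruvate kinase of liver and red cells, had a log2 fold change of 0.49 (SE 0.10), Gapdhs, the sperm isozyme, 0.82 (SE 0.11) and Galm, the mutarotase of free galactose and glucose, 0.37 (SE 0.11).

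Bpgm, which makes 2,3-bisphosphoglycerate, chiefly in red cells, averaged 27.9 ± 1.2 CPM in MCKO and 33.3 ± 2.8 CPM in control and was not called (edgeR adjusted p = 0.0508). It was called lower with the other size factors (adjusted p = 0.0132 to 0.0462) and without control replicate 3 (adjusted p = 0.00349). Adpgk, a glucokinase that uses ADP, fell by 0.34 (SE 0.13, adjusted p = 0.0486), a call lost in 8 of 16 alternative fits. The rise of Galm was lost without MCKO replicate 3 (adjusted p = 0.0626).

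The make-up of the phosphofructokinase step shifted. Per length, with the median transcript, Pfkp made up 69.1 ± 1.8% of its transcripts in MCKO and 54.4 ± 2.7% in control (SD, n = 3 each). Pfkl made up 26.7 ± 1.7% in MCKO and 36.4 ± 2.8% in control, and Pfkm 4.17 ± 0.08% in MCKO and 9.27 ± 0.22% in control. No library of one group fell within the range of the other for any of the 3. The 3 shares add up to the whole step, so they are not separate results, and they were not tested. Of all tested genes, 65.5% did not overlap between the groups in CPM. Per coding sequence the share of Pfkp was 62.1 ± 2.0% in MCKO and 46.2 ± 2.7% in control. With the longest transcript it was 58.6 ± 2.0% in MCKO and 41.9 ± 2.5% in control. Pfkl was then 32.8 ± 1.9% in MCKO and 40.6 ± 2.8% in control, so the size of each share depends on the length used. At the mutase step the ranges overlapped, with Pgam1 at 74.0 to 75.4% in MCKO and 72.4 to 75.1% in control with the median transcript. Per coding sequence they overlapped as well, at 85.7 to 86.6% in MCKO and 84.7 to 86.4% in control. At the aldolase step Aldoa held 99.5% in MCKO and 99.8% in control despite the larger change of Aldoc.

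Regulators of phosphofructokinase were mostly higher. Fructose-2,6-bisphosphate activates phosphofructokinase, and its level is set by the bifunctional PFKFB enzymes. Pfkfb3, the form with the strongest kinase activity, averaged 155.8 ± 2.0 CPM in MCKO and 47.1 ± 1.3 CPM in control, a log2 fold change of 1.79 (SE 0.042, edgeR adjusted p = 3.58e-09). Pfkfb2 rose by 1.25 (SE 0.070) and Pfkfb1 by 0.46 (SE 0.12), while Tigar, a phosphatase that lowers the activator, fell by 0.50 (SE 0.057). Of 4 tested genes 3 rose and 1 fell, and Pfkfb4 had too few counts to be tested.

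At the ends of the pathway, 9 of 11 tested genes of glucose entry and lactate exit rose and 2 fell, with a median of 1.18. Slc2a3, a neuronal-type glucose transporter, rose by 3.13 on the log2 scale, the hexokinase Hk2 by 1.82, Pdk1, which holds pyruvate out of the mitochondrial cycle, by 1.43 and the glucose transporter Slc2a1 by 1.32 (edgeR adjusted p under 0.05 for each). Ldhb, the heart-type lactate dehydrogenase subunit, averaged 105.6 ± 2.1 CPM in MCKO and 166.2 ± 5.1 CPM in control, and the hexokinase-related Hkdc1, which fell by 2.45, was the other gene that fell.

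Genes of the branches that leave glycolysis for biosynthesis were mostly lower. In the pentose phosphate pathway, which makes NADPH and ribose, 7 of 10 genes fell, 1 rose and 2 were not called, with a median log2 fold change of -0.29. Prps1, which makes the ribose donor for nucleotides, averaged 43.3 ± 0.1 CPM in MCKO and 66.9 ± 2.9 CPM in control, and fell by 0.57 (SE 0.047, edgeR adjusted p = 8.37e-06). Rpia, the ribose-5-phosphate isomerase, fell by 0.65 (SE 0.090), Taldo1, transaldolase, fell by 0.40 (SE 0.075) and Prps2 fell by 0.33 (SE 0.063). The 1 gene that rose was Tkt, transketolase, at 0.23 (SE 0.066, adjusted p = 0.0148), a call lost without MCKO replicate 3 (adjusted p = 0.0610).

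Hexosamine and mannose genes, which feed glycosylation from fructose-6-phosphate, had 5 of 8 lower, 1 higher and 2 not called, with a median of -0.29. Mpi, mannose-phosphate isomerase, fell by 0.58 (SE 0.058), the phosphomannomutase Pmm2 fell by 0.53 (SE 0.059) and Gfpt2, which starts hexosamine synthesis, fell by 0.50 (SE 0.055). The related mutase Pmm1 rose by 0.65 (SE 0.080, edgeR adjusted p = 0.000102). In the glycerol-3-phosphate branch 3 of 5 genes fell and 2 were not called. Gpd1l, a glycerol-3-phosphate dehydrogenase, fell by 0.49 (SE 0.055), mitochondrial Gpd2 fell by 0.34 (SE 0.050) and glycerol kinase Gk fell by 0.33 (SE 0.084).

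Glycogen genes were mostly higher, with 8 of 12 up, 3 down and 1 not called and a median of 0.49. Gys1, the muscle glycogen synthase, averaged 543.1 ± 9.7 CPM in MCKO and 219.4 ± 1.5 CPM in control, a log2 fold change of 1.37 (SE 0.038, edgeR adjusted p = 7.83e-09). Pygl, the liver-type glycogen phosphorylase, rose by 1.15 (SE 0.041), Pgm1, which links glycogen to glucose-6-phosphate, by 1.01 (SE 0.040) and Gyg, the glycogenin primer, by 0.71 (SE 0.035). The brain phosphorylase Pygb fell by 0.43 (SE 0.037) and the muscle phosphorylase Pygm fell by 0.22 (SE 0.046), while Ugp2, which makes UDP-glucose, fell by 0.39 (SE 0.050).

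Of 8 genes of the gluconeogenic bypass, 3 had enough counts to be tested and all 3 rose. Pck2, the mitochondrial phosphoenolpyruvate carboxykinase, averaged 87.9 ± 3.6 CPM in MCKO and 25.4 ± 0.9 CPM in control, a log2 fold change of 1.85 (SE 0.054, edgeR adjusted p = 1.16e-08). Pcx, pyruvate carboxylase, rose by 0.79 (SE 0.072) and G6pc3, a glucose-6-phosphatase, by 0.33 (SE 0.071). The fructose bisphosphatases Fbp1 and Fbp2 averaged under 0.0876 CPM in either group.

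**Figure D4:**
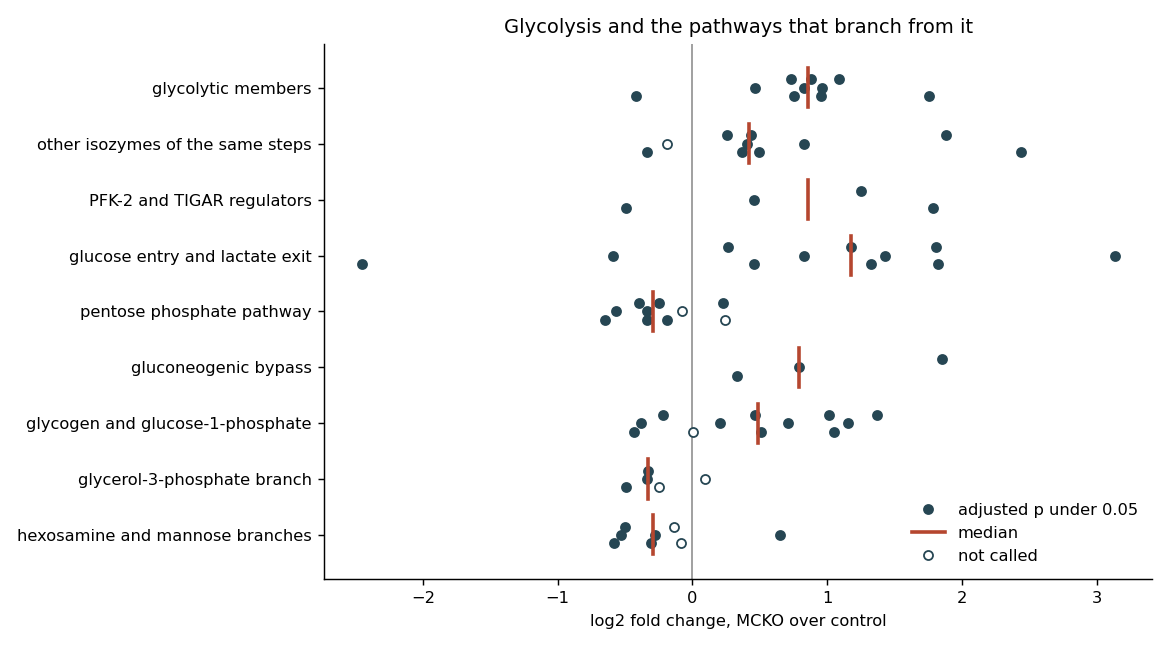
Log2 fold change, MCKO over control, of every tested gene in the glycolytic and neighbouring lists, 1 point per gene, filled where the adjusted p was under 0.05, with a red bar at the median of each list. The medians lie at 0.85 for the glycolytic enzymes at -0.29 for the pentose phosphate and hexosamine lists and at -0.33 for the glycerol-3-phosphate list.

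Since 9 of the 10 members rose together, their promoters were searched for ACGTG and GCGTG on both strands, the letters of the core of the hypoxia response element. The windows run from 250 bases before to 50 bases after a start site, from RefSeq on GRCm38.p6, and overlapping matches were counted separately. Of the 15 windows of the 10 genes, 11 held a match, and 8 of the 10 genes had one in at least 1 window. Over all 32851 windows 43.8% held a match, and over all genes 46.7%. The 10 genes had 15 windows while all 27025 genes had 32851, so the shares of genes with a match are not like for like. The windows of these genes had 52.7 to 69.0% G and C, against a median of 52.7% for all windows. Shown are Pfkp, with the largest rise and 4 matches, and Pgk1, with the second largest rise and 2. Also shown are Eno1, whose row fell and whose window shown, 1 of 3, also has 2, and Tpi1, which rose without a match. Over all windows 3.86% held 4 or more matches. Of the genes not shown, Pgam1, with the smallest rise, had 3 matches and Gapdh 3. Pfkl had 1, Aldoa 1, 1 and 0 in its windows, Pkm 0 and 2, and Gpi1 0. Whether the number of matches goes with the size of the rise was not tested. The matches are in capitals, each sequence runs 5′ to 3′ on the gene's strand, and a match describes these letters and not a bound site.
Pfkp, chr13:6648722-6649021, minus strand: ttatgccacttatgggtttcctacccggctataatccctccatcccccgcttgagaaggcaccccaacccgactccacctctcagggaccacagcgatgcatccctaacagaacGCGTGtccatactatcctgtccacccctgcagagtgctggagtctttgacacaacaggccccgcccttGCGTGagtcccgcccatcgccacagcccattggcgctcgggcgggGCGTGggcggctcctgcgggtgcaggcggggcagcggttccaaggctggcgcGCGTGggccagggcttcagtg
Pgk1, chrX:106186850-106187149, plus strand: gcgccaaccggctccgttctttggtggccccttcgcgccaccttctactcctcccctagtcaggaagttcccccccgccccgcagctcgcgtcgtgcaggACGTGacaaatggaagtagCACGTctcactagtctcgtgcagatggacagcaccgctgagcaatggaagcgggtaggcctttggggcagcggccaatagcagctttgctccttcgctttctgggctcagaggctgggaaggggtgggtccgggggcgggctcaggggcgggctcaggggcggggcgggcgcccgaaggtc
Eno1, chr4:150236947-150237246, plus strand: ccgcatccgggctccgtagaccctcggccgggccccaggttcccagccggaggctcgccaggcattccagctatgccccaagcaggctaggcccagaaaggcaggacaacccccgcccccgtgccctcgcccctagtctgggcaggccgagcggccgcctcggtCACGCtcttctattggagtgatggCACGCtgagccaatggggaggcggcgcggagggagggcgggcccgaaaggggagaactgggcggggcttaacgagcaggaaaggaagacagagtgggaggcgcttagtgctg
Tpi1, chr6:124814109-124814408, minus strand: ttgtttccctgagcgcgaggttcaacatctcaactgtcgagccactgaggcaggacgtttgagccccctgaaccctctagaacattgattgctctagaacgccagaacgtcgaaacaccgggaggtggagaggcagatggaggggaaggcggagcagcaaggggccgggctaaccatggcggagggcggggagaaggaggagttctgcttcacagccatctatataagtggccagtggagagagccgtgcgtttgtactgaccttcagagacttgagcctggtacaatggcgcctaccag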

How the data were processed

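The labels' protocols name the Aurum Total RNA Mini Kit for extraction and a TruSeq Stranded mRNA kit for the libraries. The authors deposited estimated counts, 1 whole number for each Ensembl gene and library, with no scaling for depth or length. Kallisto and mm10 appear in the submitters' processing notes; no version, transcript set or rounding step is given there. In the table the knockout columns carry CKO in place of MCKO, and each was assigned by its remaining name and number.

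Symbols, coordinates and transcripts came from GENCODE M21 on GRCm38. Counts entered edgeR 4.0.16 (R 4.3.3) with filterByExpr defaults, TMM factors and the robust quasi-likelihood test on group alone, 2-sided; Benjamini-Hochberg adjustment ran over 14697 genes, with calls under 0.05. Each SE is the log2 fold change over the square root of its F statistic. Copies were found with minimap2 2.31 from each gene's longest transcript. The members and the lists were chosen with earlier results of these data known. Of each neighbouring list, up to 4 called genes with the smallest p are named, and every called gene that moved against the majority; of isozymes, those with a mean of at least 1 CPM; of copies, those with at least 5% of a family. Within groups libraries differed by a chi-square of 3.58 to 15.4 per degree of freedom, so none was taken for a copy of another. Alternatives were other size factors, filters, DESeq2 1.42.0, a replicate block, leaving out each library, summed copies, and leaving out pseudogene, haemoglobin or mitochondrially encoded rows.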

Additional observations from a re-analysis of the deposited data

How the results depend on the processing

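With near-identical copies summed into their members, Eno1 turned from -0.42 to 0.55 on the log2 scale, and the number of members called lower became 0. In CPM the Eno1b row rose by more than the Eno1 row fell. From family sums, the ratio of Eno1 to Pgam1 was 0.0774 higher in MCKO, against -0.88 from single rows, and Gapdh to Tpi1 0.0329 higher, against -0.02. The summed level of the 10 members in MCKO was 24505 CPM per kb with the median transcript length, 13284 with the longest transcript and 19812 with the longest coding sequence; with copies summed over that sequence, added after seeing the data, it was 24035. The other 9 members kept their direction and their call in all 16 alternatives, as did the Eno1 row in 15, where it ran from -0.48 to -0.39. All 10 families stayed higher under the looser identity of 90%, with copies taken by sequence only and without any 1 library. Over the alternatives 7452 to 8766 genes were called, the lowest without MCKO replicate 2. Same-numbered libraries deviated with correlations of -0.0429, 0.036 and -0.2, and differently numbered ones with -0.219 to 0.244. These values give no sign of pairing by number, but with 3 libraries per group they cannot exclude it. With the replicate block 7765 genes and all 10 members were called. For 54 other named genes no direction turned in 849 fits of a gene under an alternative, while 10 lost and 7 gained a call. With library totals only, 42.6% of calls were higher, against 50.2% with TMM. How reads were divided between copies limits the Eno1 row.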

Other observations

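The genes outside the lists whose profile over the 6 libraries lay closest to the mean of the 10 enzymes were Afap1l1, an actin-filament adaptor, Sun2, a nuclear envelope protein, Ndufv3, a complex I subunit, and Zkscan17, a zinc finger gene. The measure was the Euclidean distance between centred log2 CPM profiles, 0.044 for Afap1l1 and 0.0582 for Zkscan17, among 4370 genes averaging 50 CPM or more. Afap1l1 averaged 335.7 ± 1.7 CPM in MCKO and 200.7 ± 7.1 CPM in control, and Ndufv3 134.5 ± 4.1 CPM in MCKO and 78.3 ± 4.2 CPM in control (SD, n = 3 each).

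Of 388 tested rows of processed pseudogenes and retrogenes, Eno1b among them, 12 rose and 25 fell by a factor of 4 or more in MCKO, together 9.54%, against 2.87% of all 14697 tested rows. This difference in share was not tested.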
